A study of Mus musculus with 10 samples.

Results

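The genes described here mark the interneurons of the striatum or govern their formation. They were taken by symbol, and all 10 were found among the 21230 genes of the deposited table. Chat, Slc5a7, Slc18a3 and Lhx8 stand for cholinergic interneurons, Sst, Npy and Nos1 for somatostatin interneurons, Pvalb for parvalbumin interneurons, and Lhx6 and Nkx2-1 are regulators of these lineages. RNA was sequenced from punches labelled as striatum from 10 BACHD mice after 8 weeks of treatment, 5 mice given SPI-24, an inhibitor of the elongation factor Spt5, and 5 given the DMSO vehicle. Each library is labelled as a separate biological replicate. Mice of both groups were heterozygous for a bacterial artificial chromosome that carries the full-length human mutant HTT gene, on the FVB/N background, and kept their own Htt gene. Treatment started at about 3 months of age. SPI-24 was delivered continuously by an osmotic pump under the skin, and the control pumps held the solvent, a mix of DMSO and PEG400. The labels do not give the sex of the mice, and no wild-type library is part of this comparison.

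Most neurons of the striatum are medium spiny neurons that project out of it, and interneurons are a small minority whose axons stay inside. Cholinergic interneurons release acetylcholine onto spiny neurons, parvalbumin interneurons fire fast and inhibit them, and somatostatin interneurons release somatostatin, neuropeptide Y and nitric oxide. These classes arise in the embryonic medial ganglionic eminence, where the homeobox factor NKX2-1 acts upstream of the LIM-homeobox factors LHX6 and LHX8. None of the genes is restricted to the striatum, since acetylcholine neurons also lie in the basal forebrain and medial habenula, parvalbumin neurons in the cortex and the thalamic reticular nucleus, somatostatin neurons in the cortex, and Nkx2-1 cells in the hypothalamus.

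Values are normalized counts, which the authors obtained by dividing read counts by the size factor of the library. The libraries held 5.48 to 46.9 M reads, an 8.57-fold range, and a limit of 3 reads for a gene without reads was worth 1.09 to 10.3 normalized counts. The tissue label was checked with 11 marker genes of medium spiny neurons. Their summed level was 41039 to 122352 in SPI-24 libraries 2 and 5 and DMSO libraries 1 and 4, and 6439 to 10129 in the other 6 libraries. Drd1, a dopamine receptor that defines part of these neurons, was between 537 and 2525 in the 4 libraries with high sums and between 0 and 78.8 in the other 6, with no read in DMSO library 3. By group, the sum ranged from 6488 to 122352 in SPI-24 libraries and from 6439 to 114162 in DMSO libraries. All 8 thalamic markers were detected, with sums of 7906 to 33288 in SPI-24 libraries and 1046 to 32846 in DMSO libraries. All 7 cortical markers were detected as well, with sums of 3220 to 17989 in SPI-24 libraries and 997 to 9960 in DMSO libraries. The sums of the 8 hypothalamic markers were 55.3 to 7611 in SPI-24 libraries and 97.4 to 2222 in DMSO libraries. Fold changes of the thalamic markers were above 0 for 8 of 8 (median log2 fold change 1.32, with Prkcd alone at an unadjusted p under 0.05) and those of the cortical markers for 7 of 7 (median 0.86), none of them called by limma. Of the 4 libraries with high spiny neuron sums, SPI-24 library 2 and DMSO library 4 had thalamic sums of 22253 and 19219. Those of SPI-24 library 5 and DMSO library 1 were 7906 and 1046. These values leave it uncertain how much of each interneuron value comes from striatal cells, and not only in the 6 libraries with low spiny neuron sums. Each member was related to the spiny neuron, thalamic, cortical and habenular lists across libraries, and the relations that passed the test are given further on. Beyond that, the part of other regions in the results was not tested. In bulk tissue, fewer cells of a type and less RNA per cell cannot be told apart.

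The question for these genes was whether SPI-24 libraries differed from DMSO libraries. None of the 10 was called by limma on log2(normalized count + 1) at a Benjamini-Hochberg adjusted p under 0.05, and neither was any of the 15871 genes tested (0%). All 10 genes had a fold change below 0, with a median log2 fold change of -0.77, against 49.8% of the genes tested and a median over these of 0.00. Lhx6 and Slc18a3 were the 2 members with an unadjusted p under 0.05, both lower in SPI-24 libraries, where 1.27% of all genes were lower at that level. Slc18a3 passed the minimum mean of 10 normalized counts only through the DMSO libraries. Its place among these 2 is therefore no independent support for a difference. In none of the 10 did the groups stand apart without overlap, which 0.517% of the genes tested did. Without DMSO library 3 the median of the members was -1.77, and without SPI-24 library 3 it was -0.38. With the spiny neuron level as a covariate the median was -0.75, and Lhx6 and Slc18a3 were at -1.91 and -3.28. The interneuron genes had wide intervals, since the median standard error of their log2 fold changes was 1.05, against 0.47 over the genes tested.

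Count-based tools on the recovered reads also called no member, with other members at the unadjusted level. DESeq2 called 0.0192% of the genes tested and had Lhx6, Slc18a3 and Slc5a7 lower at an unadjusted p under 0.05, which held for 1.52% of the genes tested. By edgeR with TMM, which called 0% of the genes tested, Lhx6 was lower at that level, as were 1.25% of genes. By limma-voom, which also called 0%, the members lower at that level were Chat, Lhx6, Slc18a3 and Sst, with 1.98% of all genes. The limit on Slc18a3 given above holds for these counts too. In DESeq2, 8 of the 10 fold changes were below 0, against 51.8% of all genes, and those of Npy and Lhx8 were above 0. The median log2 fold change of the members was -0.30 by DESeq2, -0.31 by edgeR with TMM and -1.16 by limma-voom.

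The fit was repeated without the 3 shallowest libraries. In the 7 libraries above 11 M reads, 3 given SPI-24 and 4 given DMSO, limma again called no member, but Chat, Slc5a7, Lhx8, Sst, Npy and Lhx6 were lower in SPI-24 libraries at an unadjusted p under 0.05, which held for 3.42% of the genes tested. There Chat had a log2 fold change of -5.23, Sst of -0.98 and Lhx6 of -2.43. In the deep SPI-24 libraries, 1, 3 and 4, Chat was at 1.96, 0 and 7.10 normalized counts and Lhx8 at 0 in each. Both therefore reached the minimum mean of 10 in this fit only through the DMSO libraries. Their place among these members is no independent support for a difference. Both SPI-24 libraries with high spiny neuron sums are among the shallow ones, so that none of the 3 deep SPI-24 libraries and 2 of the 4 deep DMSO libraries had high sums. In this subset treatment and spiny neuron content are therefore entangled, and the part of each in these fold changes was not tested. Nor can the change from the fit of all 10 libraries be assigned to depth or to spiny neuron content.

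**Figure D1:**
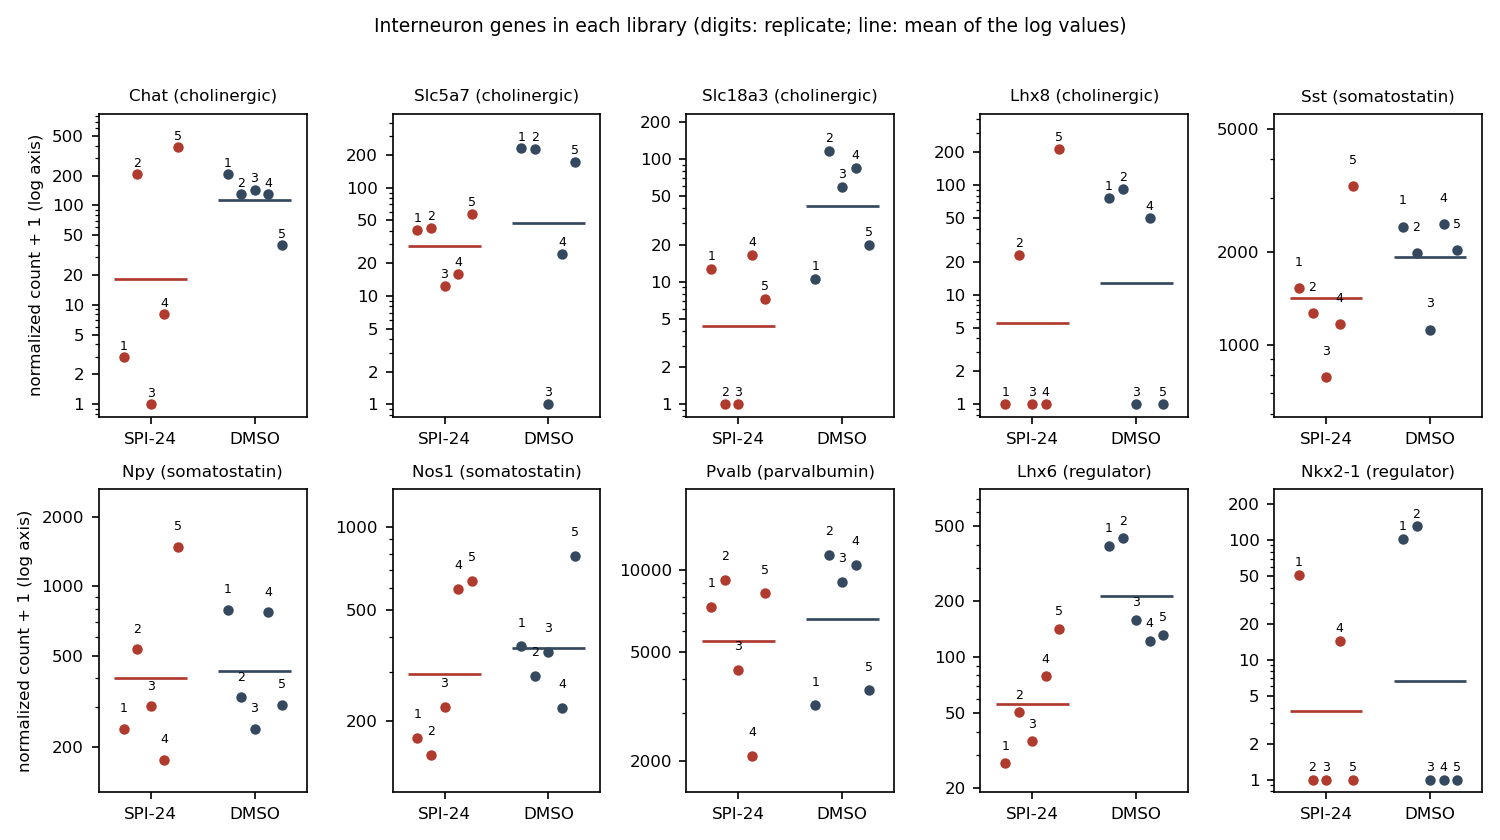
Normalized count plus 1 (log axis) of each interneuron gene in the 5 SPI-24 libraries and the 5 DMSO libraries. Points are libraries with their replicate numbers, and lines are the means of the log values. No gene separates the groups, and 4 of 5 SPI-24 libraries lie below every DMSO library for Lhx6.

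Among the cholinergic genes, Chat and Slc18a3 share a locus. Chat encodes choline acetyltransferase, which makes acetylcholine, and Slc18a3 encodes the transporter that loads it into synaptic vesicles. Chat lies at chr14:32408203-32465989 on the minus strand of GRCm38, and the single exon of Slc18a3, at chr14:32462438-32464850 on the same strand, lies inside Chat without sharing any exon base with it. The 2 RefSeq starts are 1059 bases apart. The upstream sequences are shown because both genes of this pair have a start of their own, and their levels across libraries are compared further on. For Chat, the window is chr14:32465990-32466159 of GRCm38.p6, minus strand, which ends 81 bases before the start, and capitals mark an E-box (CACGTG). For Slc18a3 it is chr14:32464851-32465100, minus strand, the 250 bases before the start, of which 59 overlap an exon of the antisense gene Gm2990. Both are RefSeq promoters, written 5′ to 3′.
Chat upstream: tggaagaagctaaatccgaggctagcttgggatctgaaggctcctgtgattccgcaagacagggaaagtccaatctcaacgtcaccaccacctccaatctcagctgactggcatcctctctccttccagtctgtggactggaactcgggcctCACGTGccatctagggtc
Slc18a3 upstream: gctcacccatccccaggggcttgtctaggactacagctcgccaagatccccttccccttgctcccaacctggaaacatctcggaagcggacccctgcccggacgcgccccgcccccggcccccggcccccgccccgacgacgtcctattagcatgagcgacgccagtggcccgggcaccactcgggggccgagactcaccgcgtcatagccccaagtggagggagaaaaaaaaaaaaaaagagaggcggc

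Of the letters shown, G and C made up 54.7% in the Chat window and 66.0% in the Slc18a3 window. All 10 genes were matched to RefSeq promoters, Pvalb to 2 and Lhx6 to 3 of them. CACGTG, a palindrome and so the same on both strands, was found within the 250 bases upstream of Chat alone among the 10 genes, and in 6.02% of the 32851 RefSeq promoters over the same length. The homeobox core TAATTA, also a palindrome, was found upstream of none of them and in 4.84% of all promoters.

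Chat was at 1.96, 208, 0, 7.10 and 389 normalized counts in SPI-24 libraries 1 to 5, and at 205, 129, 144, 128 and 38.5 in DMSO libraries 1 to 5. These SPI-24 libraries fell to both sides of the control group, with 3 below every DMSO library and 2 above every one. In reads, the 3 low SPI-24 libraries held 3, 0 and 10 reads of Chat among 29.6, 29.6 and 25.8 M reads. SPI-24 libraries 2 and 5, the 2 with high Chat, were also the 2 SPI-24 libraries with high sums of spiny neuron markers. In DMSO libraries, Chat was at 129, 144 and 38.5 in the 3 with low sums. The log2 fold change of Chat was -2.66 (SE 1.56, 95% interval -5.99 to 0.67), with an unadjusted p of 0.109 from limma. The group means, 121 ± 174 in SPI-24 libraries and 129 ± 59.4 in DMSO libraries (SD, n = 5 each), were close, and DESeq2, which compares means of counts, gave -0.09. Among the 6 libraries with low spiny neuron sums the log2 fold change of Chat was -4.97 (unadjusted p of 0.0114 from limma), and among the 4 with high sums it was 0.81 (unadjusted p of 0.311 from limma), a split chosen after seeing the data, and the difference between these sets was not tested. Among the 6 libraries with low sums, Chat reached the minimum mean of 10 only through the DMSO libraries. That p of 0.0114 from limma is therefore no independent support for a difference. With each library left out in turn, the log2 fold change of Chat ran from -3.77 without SPI-24 library 5 to -1.62 without SPI-24 library 3.

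Slc18a3 was at 11.8, 0, 0, 15.6 and 6.21 normalized counts in SPI-24 libraries and at 9.51, 115, 58.1, 84.1 and 18.9 in DMSO libraries. Of the SPI-24 libraries, 3 were below every DMSO library, and the other 2 were above DMSO library 1 alone. The means were 6.72 ± 6.99 in SPI-24 libraries and 57.1 ± 44.2 in DMSO libraries (SD, n = 5 each). The log2 fold change was -3.26 (SE 1.37, 95% interval -6.19 to -0.33), with an unadjusted p of 0.0318 from limma and an adjusted p of 0.999. Slc18a3 passed the filter on low values only through the DMSO libraries, since its SPI-24 mean was under 10. The SPI-24 libraries held 18, 0, 0, 22 and 3 reads of it, and the DMSO libraries 8, 175, 17, 175 and 52 reads. With each library left out in turn, the unadjusted p of Slc18a3 from limma ran from 0.0237 to 0.0829, and it was over 0.05 without SPI-24 library 2 or 3 or DMSO library 2 or 4.

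Slc5a7, on chromosome 17 (54273590 to 54299034), encodes the high-affinity choline transporter that returns choline to the terminal. It was at 39.9, 41.5, 11.3, 14.9 and 55.9 normalized counts in SPI-24 libraries and at 230, 227, 0, 23.6 and 172 in DMSO libraries. Here 3 DMSO libraries were above every SPI-24 library, while DMSO library 3, the shallowest, held no read of it, which allows up to 10.3 normalized counts. Its log2 fold change was -0.70 (SE 1.49, 95% interval -3.89 to 2.48), and it ran from -2.09 without DMSO library 3 to -0.13 without DMSO library 1 or 2. On the ratio of means the difference was larger, 32.7 ± 19.0 in SPI-24 libraries and 130 ± 111 in DMSO libraries (SD, n = 5 each), and DESeq2 gave a log2 fold change of -2.01.

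Lhx8, on chromosome 3 (154306294 to 154330659), encodes the LIM-homeobox factor that directs cells of the ganglionic eminence to a cholinergic fate. It was at 0, 22.1, 0, 0 and 215 normalized counts in SPI-24 libraries and at 76.1, 91.3, 0, 49.5 and 0 in DMSO libraries. No read of it was found in 5 of the 10 libraries, 3 given SPI-24 and 2 given DMSO. Limma put the log2 fold change of Lhx8 at -1.23 (SE 1.98, 95% interval -5.45 to 2.99) and DESeq2 at 0.12, so that its direction depended on the scale. All 4 libraries with high spiny neuron sums held reads of Lhx8, and so did 1 of the 6 with low sums.

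**Figure D2:**
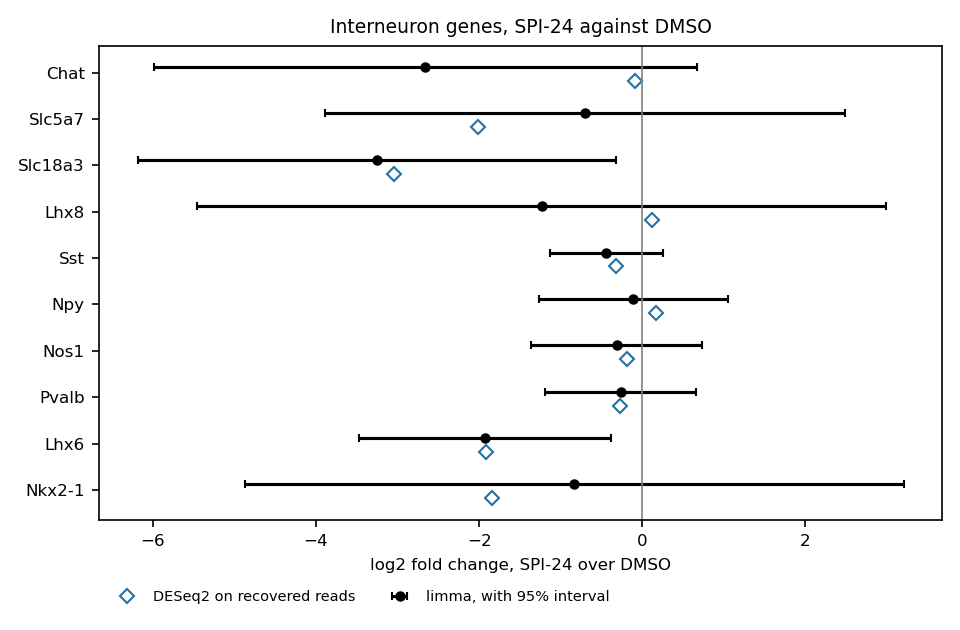
Log2 fold change of each interneuron gene, SPI-24 over DMSO. Black points are limma estimates with 95% intervals and open diamonds are DESeq2 estimates on recovered reads. The limma intervals of Lhx6 and Slc18a3 lie below 0, and the estimates of Chat, Slc5a7 and Lhx8 differ between the tools. Slc18a3 reached the minimum mean for testing only through the DMSO libraries.

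Of the somatostatin class, Sst encodes the peptide somatostatin and lies at chr16:23889573-23890958 on the minus strand. Its promoter is a textbook target of the factor CREB, and the 30 bases at chr16:23890874-23890903 (GRCm38.p6, minus strand, RefSeq) are shown because they hold the cAMP response element, in capitals. They lie before the RefSeq start but within an exon of Sst as GENCODE M21 annotates it, which begins farther upstream.
Sst element: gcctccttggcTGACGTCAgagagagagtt

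The element TGACGTCA, a palindrome, began 48 bases before the RefSeq start of Sst. Among the 10 genes it was found within the 250 bases upstream of Sst alone, and it was in 1.55% of the 32851 RefSeq promoters over that length. Sst was at 1532, 1267, 785, 1168 and 3266 normalized counts in SPI-24 libraries and at 2416, 1981, 1121, 2456 and 2026 in DMSO libraries. SPI-24 library 5 had the highest Sst and SPI-24 library 3 the lowest, and the other 3 SPI-24 libraries lay between the lowest DMSO library and the rest. For Sst the log2 fold change was -0.44 (SE 0.32, 95% interval -1.13 to 0.25), with an unadjusted p of 0.194 from limma, and it ran from -0.74 without SPI-24 library 5 to -0.23 without SPI-24 library 3.

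Npy, on chromosome 6 (49822710 to 49829507), encodes neuropeptide Y, which is released together with somatostatin. It was at 239, 531, 299.8, 175 and 1490 normalized counts in SPI-24 libraries and at 791, 328, 239, 770 and 305 in DMSO libraries. High and low libraries occurred in both groups, and the high ones were those with high spiny neuron sums. Its log2 fold change was -0.11 (SE 0.54, 95% interval -1.26 to 1.05) by limma and 0.16 by DESeq2.

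Nos1, on chromosome 5 (117781032 to 117958840), encodes neuronal nitric oxide synthase. It was at 173, 149, 224, 595 and 637 normalized counts in SPI-24 libraries and at 370, 289, 352, 223 and 785 in DMSO libraries. SPI-24 libraries 1 and 2 were below every DMSO library, while 4 and 5 were above 4 of the 5. For Nos1 the log2 fold change was -0.32 (SE 0.49, 95% interval -1.36 to 0.73). An antisense gene, Gm26995, covers 268 of its exon bases.

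Pvalb, on chromosome 15 (78191114 to 78206400), encodes parvalbumin, a calcium buffer of fast-spiking neurons. It was at 7340, 9222, 4322, 2085 and 8235 normalized counts in SPI-24 libraries and at 3200.0, 11422, 9068, 10491 and 3632 in DMSO libraries. Low values occurred in both groups, in SPI-24 library 4 and in DMSO libraries 1 and 5. For Pvalb the log2 fold change was -0.27 (SE 0.43, 95% interval -1.19 to 0.66), and without SPI-24 library 4 it was 0.08, so that its direction rested on this library.

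Of the regulators, Lhx6 had the smallest unadjusted p of the 10 genes. It lies on chromosome 2 (36081953 to 36105408) and encodes the LIM-homeobox factor that is kept on in GABAergic interneurons of the somatostatin and parvalbumin classes. Lhx6 was at 26.2, 49.8, 34.6, 78.1 and 141 normalized counts in SPI-24 libraries and at 392, 430, 157, 122 and 131 in DMSO libraries. Only SPI-24 library 5 reached into the range of the DMSO libraries, and the other 4 were below all of them. The means were 65.9 ± 46.3 in SPI-24 libraries and 246 ± 152 in DMSO libraries (SD, n = 5 each). The log2 fold change was -1.92 (SE 0.72, 95% interval -3.47 to -0.38), with an unadjusted p of 0.0180 and an adjusted p of 0.999 from limma. Of all genes tested, 0.536% had a smaller p. Leaving out each library in turn gave fold changes of -2.26 to -1.66 and unadjusted p-values from limma of 0.00759 to 0.0645, with those over 0.05 without DMSO library 1 or 2, the 2 with the highest Lhx6. Lhx6 was the member whose estimate moved least between tools, at -1.91 by DESeq2, -1.92 by edgeR with TMM and -1.93 by limma-voom. Lhx6 had a fold change of -2.29 among the 6 libraries with low spiny neuron sums and of -1.37 among the 4 with high sums.

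Nkx2-1, on chromosome 12 (56531958 to 56536908), encodes the factor that specifies the medial ganglionic eminence. It was at 50.4, 0, 0, 13.5 and 0 normalized counts in SPI-24 libraries and at 101, 129, 0, 0 and 0 in DMSO libraries. No read of it was found in 6 of the 10 libraries, 3 of each group. The log2 fold change was -0.83 (SE 1.89, 95% interval -4.87 to 3.20), and it changed sign without DMSO library 1 or 2. Nkx2-1 also marks the hypothalamus, and the summed hypothalamic markers were at 7611 and 76.7 in SPI-24 libraries 1 and 4 and at 140 and 2093 in DMSO libraries 1 and 2, the 4 libraries with Nkx2-1 reads, and at 2222 in DMSO library 3, which had none.

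**Figure D3:**
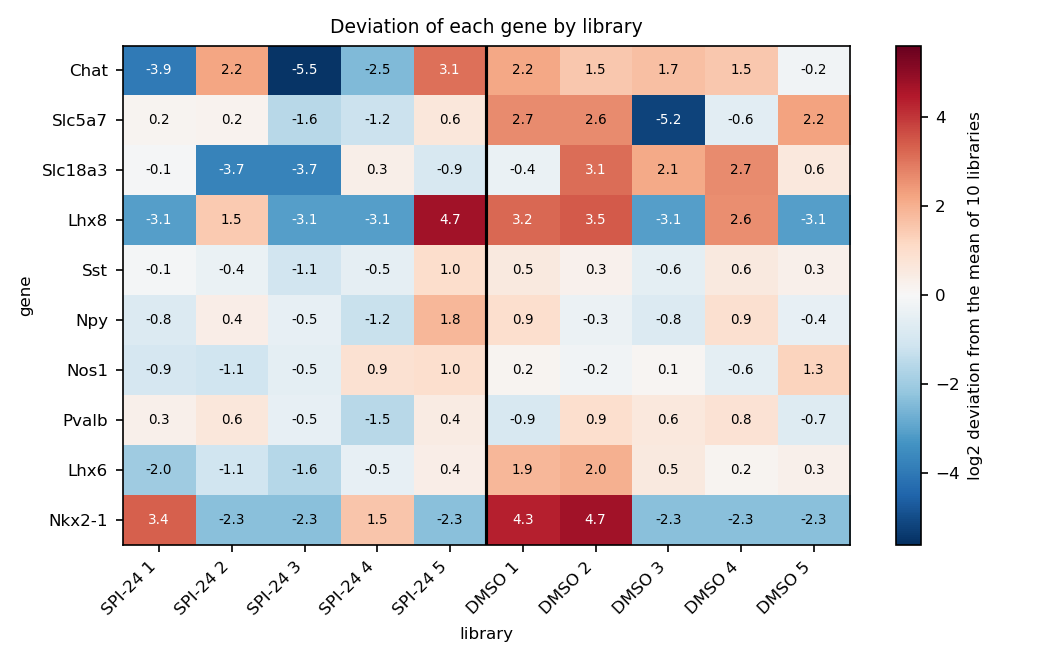
Deviation of log2(normalized count + 1) of each interneuron gene from its mean over the 10 libraries, SPI-24 libraries to the left of the line and DMSO libraries to its right. Rows of the same class differ in which libraries are high. SPI-24 library 5 is above the mean for 8 genes and SPI-24 library 3 is below it for all 10.

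Per kb of annotated exon, the genes differed widely in level. Pvalb averaged 6630 ± 3196 normalized counts per kb over the 10 libraries, followed by Sst at 2499 ± 1063 and Npy at 913 ± 718 (SD, n = 10). These 3 stood above the rest, since Nos1 averaged 34.0 ± 19.6, Lhx6 32.5 ± 29.6 and Chat 26.6 ± 26.1 per kb. Lhx8 averaged 17.9, Slc5a7 14.4, Slc18a3 13.2 and Nkx2-1 10.4 per kb. By an exact sign-flip test within libraries, adjusted over the 9 neighbouring pairs, Pvalb was above Sst in 9 of 10 libraries (adjusted p = 0.0117), and Sst was above Npy and Npy above Nos1 in 10 of 10 (adjusted p = 0.00879 each). Chat was above Lhx8 in 7 of 10 libraries (exact adjusted p = 0.0352), and the other 5 pairs of neighbours did not pass the test. The order and so the pairs were taken from these same libraries, so that these p-values are no independent support for it.

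Genes of 1 class did not vary together across libraries to an extent that passed the test. Over 10 libraries, 45 pairs of members and 40 pairs of a member with a marker list were compared by permutation with 100000 resamples, and none of the 45 pairs of members had an adjusted p under 0.05. Chat and Slc18a3, which share the locus shown above, had a Pearson r of 0.33 (permutation p = 0.359, adjusted p = 0.657) and a Spearman rho of -0.10 (permutation p = 0.775, adjusted p = 0.922), and r was -0.18 without the 2 libraries farthest from the median of Chat. Chat and Slc5a7 had an r of 0.21 (permutation p = 0.560, adjusted p = 0.810) and a rho of 0.43 (permutation p = 0.219, adjusted p = 0.582), with an r of 0.11 without the 2 farthest libraries. Chat and Lhx8 had an r of 0.74 (permutation p = 0.0126, adjusted p = 0.228) and a rho of 0.72 (permutation p = 0.0261, adjusted p = 0.222), and r was 0.73 without the 2 farthest libraries. In the 7 libraries above 11 M reads, r was 0.75 for Chat with Slc18a3, 0.71 for Chat with Slc5a7 and 0.84 for Chat with Lhx8. No pair of members passed in that subset either (smallest adjusted permutation p = 0.171). Treatment and spiny neuron content are entangled in these 7 libraries, and the part of each in these r values was not tested. Sst and Npy had an r of 0.74 (permutation p = 0.0139, adjusted p = 0.228) and a rho of 0.81 (permutation p = 0.00698, adjusted p = 0.0848), with an r of 0.70 without the 2 farthest. Slc5a7 and the mean level of the 8 thalamic markers ran against each other in rank, with a rho of -0.92 (permutation p = 0.00055, adjusted p = 0.0234), while the Pearson r of -0.67 did not pass (permutation p = 0.0409, adjusted p = 0.268). Without the 2 libraries farthest in Slc5a7 that r was -0.67, and with group means removed it was also -0.67. No pair of a member with the cortical or habenular list had an adjusted p under 0.05.

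Npy was high where the spiny neuron markers were high. Over all 10 libraries, Npy and the mean level of this list had an r of 0.95 (permutation p = 5e-05, adjusted p = 0.00425). Their rho was 0.99 (permutation p = 1e-05, adjusted p = 0.00085). The sums of these markers fell into separate sets of 4 and 6 libraries, so that this r cannot tell a graded relation from that split. Npy was at 531 to 1490 normalized counts in the 4 libraries with high sums and at 175 to 328 in the 6 with low sums, and it was the only member whose values did not overlap between these sets, a lack of overlap that 3.44% of the genes tested shared. Each set held equal numbers of both treatments, 2 and 2 libraries in the high set and 3 and 3 in the low set. Within the 6 libraries with low sums, Npy and the marker list had an r of 0.66 (exact permutation p = 0.151) and a rho of 0.94 (exact permutation p = 0.0167), and over the 10 members compared in this way the adjusted p of that rho was 0.167. For Pvalb the r within these 6 libraries was -0.02 (exact permutation p = 0.971), and its values in the 4 libraries with high sums, 3200.0 to 10491, lay inside the range of 2085 to 11422 in the other 6.

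**Figure D4:**
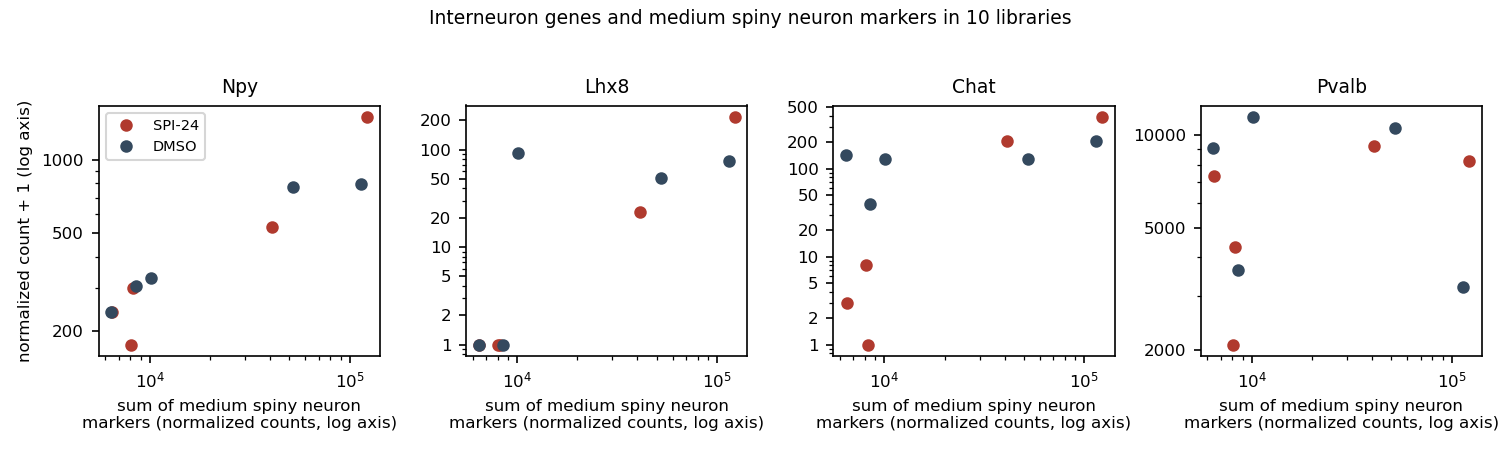
Normalized count plus 1 of Npy, Lhx8, Chat and Pvalb against the summed level of 11 medium spiny neuron markers in 10 libraries (log axes), SPI-24 in red and DMSO in dark blue. The 4 libraries at the right, 2 of each group, have high Npy and reads of Lhx8, whereas Chat is low only in 3 SPI-24 libraries at the left and Pvalb shows no such split.

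The genes whose levels were most like those of 4 members over the 10 libraries, by Pearson r of log2 values among 15855 genes, are given as a description. For Chat they were Six3 (0.91), Setd2 (0.90), Trerf1 (0.90), Ccdc181 (0.90) and Dlx6 (0.89). For Sst they were Atl2 (0.92), Pde2a (0.92), Slc32a1 (0.92), Mkrn1 (0.91) and Ccdc42 (0.90), of which Slc32a1 encodes the vesicular GABA transporter. For Pvalb they were Serpinb1a, Cdr2, Tmem88b, Ubxn7 and Cd82 (0.88 to 0.86), and for Lhx6 Ercc6, Rcan3, Siglech and Srsf7 (0.91 to 0.85). Of the cholinergic partner genes of Chat, Lhx8 ranked 141 by this measure, Slc18a3 2352 and Slc5a7 3503.

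Of 41 further interneuron genes in 6 lists, 40 were tested and none was called by limma. Of these, 2 had an unadjusted p under 0.05, 26 had a fold change below 0 and 14 above 0, and their median log2 fold change was -0.20. Over all genes tested, 2.23% had an unadjusted p under 0.05 and 49.8% a fold change below 0. Dlx1, a homeobox factor of GABAergic interneurons, averaged 105 normalized counts in SPI-24 libraries and 316 in DMSO libraries, a log2 fold change of -1.55 (unadjusted p of 0.0232 from limma). Gad1, which makes GABA, averaged 3706 in SPI-24 libraries and 5442 in DMSO libraries, a log2 fold change of -0.78 (unadjusted p of 0.0295 from limma). All 4 genes of GABA synthesis and transport had fold changes below 0, with Gad2 at -0.50 (unadjusted p of 0.162 from limma). Medium spiny neurons and other GABA neurons also express these 4.

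The rest of these lists gave no consistent direction. Of 8 further cholinergic genes, 6 had fold changes below 0 and 2 above 0, with those of smallest p Ngfr, a neurotrophin receptor of cholinergic neurons (-2.28), and the zinc finger factor Zic4 (-1.73). Of 10 regulators of interneurons from the ganglionic eminence, 6 were below 0 and 4 above, Dlx1 among those below. Of the 5 tested genes of the somatostatin list, 3 were below 0 and 2 above, with Tacr1, the substance P receptor, at 2.40 and Chodl at -2.35. Of 6 genes of the parvalbumin list, 3 were below 0 and 3 above, with the potassium channel gene Kcnc2 at 0.88 and the channel subunit gene Kcnab3 at 0.45. Of 7 genes of other interneuron classes, 4 were below 0 and 3 above, with Cck at 0.54 and Htr3a at 1.51. Apart from Dlx1, none of the genes named for these 5 lists had an unadjusted p under 0.05 by limma.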

How the data were processed

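Punches labelled as striatum from 10 mice were profiled by the authors with stranded libraries of polyadenylated RNA and single reads of 50 bp. Reads were trimmed with cutadapt and aligned to GRCm38 with STAR. HTSeq gave the counts of uniquely mapped reads of at least 30 bp for each gene. No source used here gives the versions. The deposited values are a signal per gene and library, made by scaling each library's read counts with its size factor from DESeq2. Columns with the authors' fold changes and p-values were not used. Reads were recovered from the steps between low values, with 99.999% of 154521 values above 0 whole within 0.1 of a read.

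SPI-24 and DMSO libraries were compared by limma 3.58.1 (trend, no covariate) in R 4.3.3 on log2(normalized count + 1). Genes needed a mean of 10 or more over all libraries, which left 15871, and p-values were adjusted by Benjamini-Hochberg. Fold changes are on this log scale, where the added 1 shrinks changes of low genes and libraries without reads can move a fold change away from the ratio of means in either direction. DESeq2 1.42.0, edgeR 4.0.16 and limma-voom on recovered reads were alternatives, with other pseudocounts, filters and scalings, covariates, the replicate number as a block, deep libraries and each library left out. Fits within the libraries low or high in spiny neuron markers were chosen after seeing the data. The test scripts were checked on simulated counts. Coordinates and exon lengths are those of GENCODE M21, and promoters those of RefSeq on GRCm38.p6.

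The members and lists were chosen with earlier results of these data known. Every member was named, with up to 2 genes of smallest p in each wider list and the 5 genes most like Chat, Sst, Pvalb and Lhx6. Drd1, Prkcd, Gm2990 and Gm26995 were named after their values were seen. Of the genes this rule takes, 2 are not reported here. Limits for genes without reads cover counting error only.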

Additional observations from a re-analysis of the deposited data

Results flagged for a closer look

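In each group of 5 libraries the highest and lowest values of the 10 genes were set against the rest by Dixon's ratio, the gap to the nearest library over the range of the group, with a critical value of 0.71. Of 20 groups 4 were over it, each with its highest value. Chance gives about 1 in 20 only for normally distributed values. These are counts that hold zeros and a few high values, so that no excess is read from the 4. Lhx8 in SPI-24 library 5 was at 215 normalized counts, with the next SPI-24 library at 22.1 (ratio 0.897). Npy in the same library was at 1490, with the next at 531 (ratio 0.729). Nkx2-1 in SPI-24 library 1 was at 50.4, with the next at 13.5 (ratio 0.732). Nos1 in DMSO library 5 was at 785, with the next at 370 (ratio 0.738). SPI-24 library 5 also had the highest sum of spiny neuron markers, and the part of this in its Lhx8 and Npy values was not tested.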

How the results depend on the processing

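No member was called under any of the 26 alternatives, and genes over the whole table were called by DESeq2 alone (3). The number of members at an unadjusted p under 0.05 was 1 without a filter on low values, with a minimum mean of 50 and by edgeR with TMM or the deposited size factors, 4 by limma-voom, 6 in the libraries above 11 M reads and 0 in the 4 libraries high in spiny neuron markers. It was 0 to 4 with a library left out. Slc18a3, Lhx8 and Nkx2-1 did not reach the minimum mean of 50 and were not tested in that setting. The limit on Chat and Lhx8 given above holds for the 6 in the libraries above 11 M reads. Same-numbered libraries of the groups did not deviate together (r of -0.13 to -0.01, and 0 of 5 numbers fitted best with their own), so the numbers do not pair the samples. With the replicate block, 1 member was at that level and the median of the members was -0.77.

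Of 257 fold changes of members under the alternatives, 20 changed sign, none of them called. Lhx8 was at 0.12 by DESeq2 and at 0.067 and 0.11 by edgeR with TMM and with the deposited size factors, and Npy was at 0.16, 0.14 and 0.16 by these. Nkx2-1 was at 0.015 by limma-voom. In the 4 libraries high in spiny neuron markers, Chat was at 0.81, Lhx8 at 0.18, Npy at 0.19, Nos1 at 0.11 and Pvalb at 0.59, and in the 6 low ones Nkx2-1 was at 0.84. With a library left out, Npy ranged from -0.58 to 0.19, Pvalb from -0.53 to 0.084 and Nkx2-1 from -1.78 to 0.24. The r of Chat and Slc18a3 was -0.18 without the 2 farthest libraries, -0.029 with group means removed and 0.75 in the libraries above 11 M reads. The cause of these changes was not tested. Depth limits the low genes most, since 1 read was worth 3.42 normalized counts in DMSO library 3 and 0.36 in DMSO library 5.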
